A study of Mus musculus with 8 samples.

Results

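Interferon-stimulated genes are the genes that cells switch on when an interferon binds its receptor. Of 38 such genes chosen by name, 36 had at least 1 probe set with a single gene symbol, 56 probe sets in all among the 45037 tested. Arrays of proximal small intestine from 4 mice with epithelial loss of Pdx1 and from 4 littermate controls gave their values. The knockout mice were Pdx1flox/flox;VilCre and the controls Pdx1flox/flox, so both groups carried loxP sites around Pdx1 exon 2 and only the knockout carried Cre, driven by a 12.4 kb villin promoter fragment active in the gut epithelium. All were males aged 6 months, each described as a brother of one litter, on a diet with 4.5% fat. Each array read whole tissue from the 5 cm next to the pylorus, so epithelial, immune and muscle transcripts are mixed, and a difference in the number of cells of a type cannot be told apart from a difference in RNA per cell. Isg15 and Ifi44, an ubiquitin-like modifier and an inducible cytoplasmic protein, had no probe set with only their symbol and have no value here.

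Interferons of types I and III act through the kinases Jak1 and Tyk2 on a complex that holds Stat2 and Irf9 and binds the interferon-stimulated response element, a pair of GAAA repeats, in target promoters. Interferon gamma acts through Jak1 and Jak2 and on the gamma-activated site, an inverted TTC and GAA. In the gut, epithelial cells are known to respond strongly to type III interferon, and lymphocytes within the epithelium can release interferon gamma. The products of these genes block viral replication, attack membranes around intracellular microbes, cut and load peptides for MHC class I, and call in T cells.

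These elements can be seen in the promoters of several members. The following stretches, from RefSeq on GRCm38.p6 and all before the annotated gene start, are shown because they belong to genes of different roles whose values are given below. Each is written 5′ to 3′ on the strand of its gene, and capitals mark the core of either element: GAAA, any 2 bases and GAAA on either strand (TTTC, any 2 bases and TTTC when read from the other), or TTCNNNGAA.
Ifit1, chr19:34640763-34640835, plus strand: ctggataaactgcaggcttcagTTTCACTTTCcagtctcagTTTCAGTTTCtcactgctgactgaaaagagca
Rsad2, chr12:26456541-26456594, minus strand: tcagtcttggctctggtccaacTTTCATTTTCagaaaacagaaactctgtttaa
Igtp, chr11:58199489-58199553, plus strand: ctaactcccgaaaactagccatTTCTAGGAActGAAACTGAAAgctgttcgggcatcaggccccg
Irgm1, chr11:48871421-48871472, minus strand: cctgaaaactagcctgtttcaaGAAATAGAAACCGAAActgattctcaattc
Gbp2, chr3:142620582-142620635, plus strand: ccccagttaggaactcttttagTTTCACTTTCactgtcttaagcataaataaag
Irf1, chr11:53769902-53769954, plus strand: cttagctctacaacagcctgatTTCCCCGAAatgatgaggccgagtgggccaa

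In the promoter table, which reads 250 bases before to 50 after each start, 26 of the 36 measured members had an entry. The response element core, searched on both strands, lay in 12 of these 26 genes (46.2%) and in 3.99% of all 27025 genes in the table. The site core TTCNNNGAA, which reads the same on both strands, lay in 7 of 26 (26.9%) against 9.55%. Neighbouring response element cores can share bases, as in Irgm1, and 3 members held both kinds of core. Of the 5 inducible GTPases with an entry, 4 held the response element core and 1, Igtp, also the gamma-activated core. These are letter matches in a fixed window and do not show binding.

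The labels were checked first on the targeted gene. The brighter Pdx1 probe set read 8.52 ± 0.36 in the controls and 5.93 ± 0.25 in the knockouts on the log2 scale (SD, n = 4 each; adjusted p = 4.16e-04 in limma), with no overlap between the groups. Enterocyte genes were bright, with means over the mice of 9.67 to 14.49 for 9 genes. The ileal bile acid transporter Slc10a2 and the hindgut factor Hoxb13 lay at 3.08 and 4.77, below the array medians. Array medians lay between 5.23 and 5.27. The difference between the 3′ and 5′ probe sets of beta-actin, a measure of RNA integrity, was 0.32 to 0.61 over the 8 arrays. Control 2 and knockout 3 stood apart from the rest of their groups in the same way: across all 45037 probe sets their deviations from their group means correlated at r = 0.597, the highest of 16 control and knockout pairs, where the others lay between -0.475 and 0.394. Probe sets are not independent replicates, and this value describes those arrays only. Their actin differences were 0.43 and 0.37, inside the range of the others.

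Loss of Pdx1 from the epithelium left no detected difference in interferon-stimulated transcripts, whereas mice of the same genotype differed widely. None of the 56 member probe sets changed (limma, adjusted p under 0.05), against 0.0422% of all probe sets tested (0.00444% higher and 0.0377% lower). At an unadjusted p under 0.05 there were 0, and in an ordinary linear model also 0 before and after adjustment. The lowest adjusted p was 0.761, for Irf7. In no member probe set were the knockout and control values fully separated, against 4.43% of all probe sets and, by gene, 4.35% of all genes. Knockout means were higher for 30 of 36 genes, each read by its brightest probe set, against 51.6% of all genes. The median member value was 0.14 against 0.0046 over all genes. That direction depended on which mice were left out. Without knockout 3, 12 of 36 were higher and the median was -0.076. Without control 2 and knockout 3 together, 28 of 36 were higher, against 53.4% of all genes. The median was then 0.11, against 0.0098 over all genes. Among knockouts, the mean deviation of the members was highest in knockout 3, at 0.67. So were those of the lymphocyte, MHC class II and exocrine pancreas marker lists, at 0.61, 0.98 and 0.60. By brightest probe set, the 95% intervals lay within ±1 on the log2 scale for 26 of 36 genes. Their bounds reached -1.44 for Xaf1 and 1.84 for Igtp. The interval of the other Xaf1 probe set ran from -0.57 to 2.45. The data thus leave room for changes of that size in single genes.

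**Figure D1:**
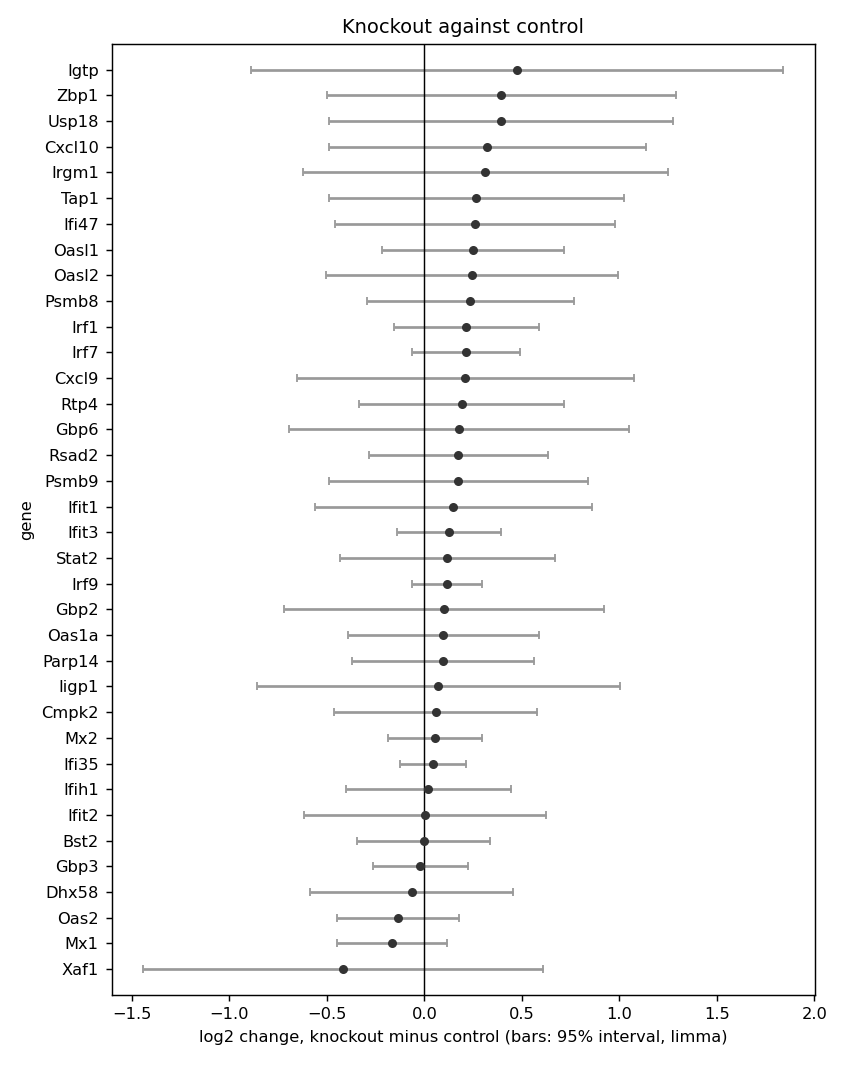
Log2 change (knockout minus control, horizontal axis) of the 36 measured interferon-stimulated genes, each by its brightest probe set, with 95% intervals from limma as bars (n = 4 mice per group). Points run from -0.42 for Xaf1 to 0.48 for Igtp, and every bar crosses 0.

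The spread between mice was the larger feature. The SD between mice within groups, pooled over both groups, had a median of 0.43 over the members and 0.13 over all genes. An SD of at least the members' median was found in 2.18% of all genes. From the lowest to the highest mouse, 25 of 36 members spanned at least 1 on the log2 scale, against 3.99% of all genes. The members were also brighter, with a median level of 8.32 against 6.64 over all genes. Means under 5 were found in 1 of 36 members and in 5344 of 18193 genes. The part of brightness in these contrasts was not tested. The highest control value was in control 2 for 34 of 36 members (25.4% of all genes), and the highest knockout value was in knockout 3 for 32 of 36 (30.2%). Both held for 31 members, against 14.9% of all genes. In 29 members these mice held the 2 highest of all 8 values, against 9.99% of all genes. These mice were picked out after their values were seen, and the members were chosen with earlier results of these data known. The counts therefore describe these 8 mice and carry no test. At the other end, control 4 held the lowest of the 8 values for 16 members (13% of all genes) and knockout 1 for 13 members (9.55%). For the members, each group thus contained both a high and a low mouse.

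**Figure D2:**
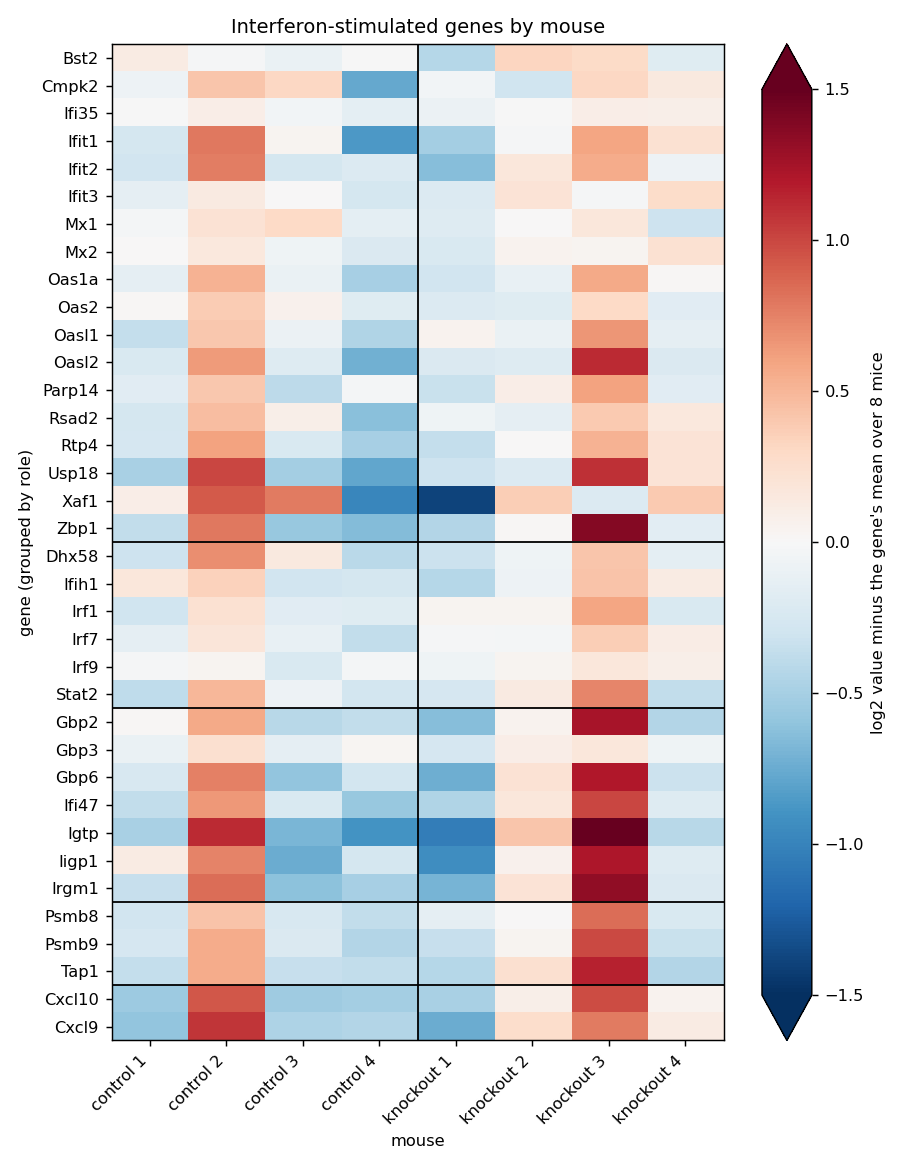
Deviation of each member's log2 value from its own mean over the 8 mice (colour, cut off at ±1.5), with genes in rows grouped by role and mice in columns. Control 2 and knockout 3 form red columns, with mean deviations of 0.53 and 0.67, while control 4 and knockout 1 are mostly blue at -0.40 and -0.38.

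**Figure D3:**
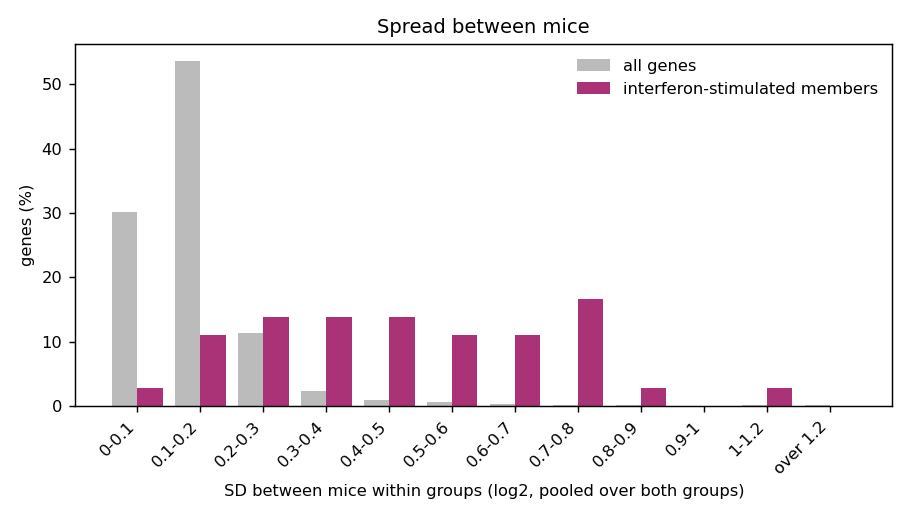
Share of genes (percent, vertical axis) by SD between mice within groups on the log2 scale, for all 18193 genes (grey) and the 36 members (purple). Among all genes 30.2% had an SD under 0.1, against 2.78% of the members.

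The interferon-inducible GTPases, which assemble on the membranes around intracellular bacteria and parasites, had the highest median SD of the member roles. It was 0.72, close to the 0.69 of the 2 chemokines. Within the controls alone the chemokines had the higher median SD, 0.76 against 0.59. All 7 GTPases were highest in control 2 among controls and in knockout 3 among knockouts. Igtp, also called Irgm3, a regulator of this family, read 9.09, 10.69, 8.89 and 8.67 in controls 1 to 4 and 8.53, 9.98, 11.57 and 9.16 in knockouts 1 to 4. Its highest and lowest mice were both knockouts and differed 8.21-fold. The group difference was 0.48 ± 0.61 (SE; adjusted p = 0.904 in limma), smaller than the SD in either group, 0.92 and 1.31.

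Irgm1, which helps target microbes for autophagy, read 7.94, 9.12, 7.67 and 7.79 in the controls and 7.59, 8.50, 9.62 and 8.07 in the knockouts. Iigp1, an effector GTPase that damages parasite vacuoles, read 8.25, 8.88, 7.38 and 7.86 against 7.19, 8.19, 9.34 and 7.93. Its dimmer probe set showed the same high and low mice, with 7.19 in control 2 and 7.80 in knockout 3. For Iigp1 the high and low mice were therefore not set by a single probe set, whereas Igtp and Irgm1 were each read by a single one. In Irgm1 and in Iigp1 knockout 2 was the next highest of its group.

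Among the guanylate-binding proteins, Gbp2 ranged from 6.91 in knockout 1 to 8.78 in knockout 3 and Gbp6 from 5.93 to 7.86 in the same mice. Gbp3 was the steadiest of the GTPases, with an SD of 0.18 and values between 6.12 and 6.61. Ifi47, another inducible GTPase, read 10.34 in control 2 and 10.69 in knockout 3, and 9.11 to 9.85 in the others. GTPases of this family resemble each other in sequence, so a probe set may also read relatives. Adjusted p-values in limma for the 7 genes lay between 0.901 for Ifi47 and 0.983 for Iigp1.

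**Figure D4:**
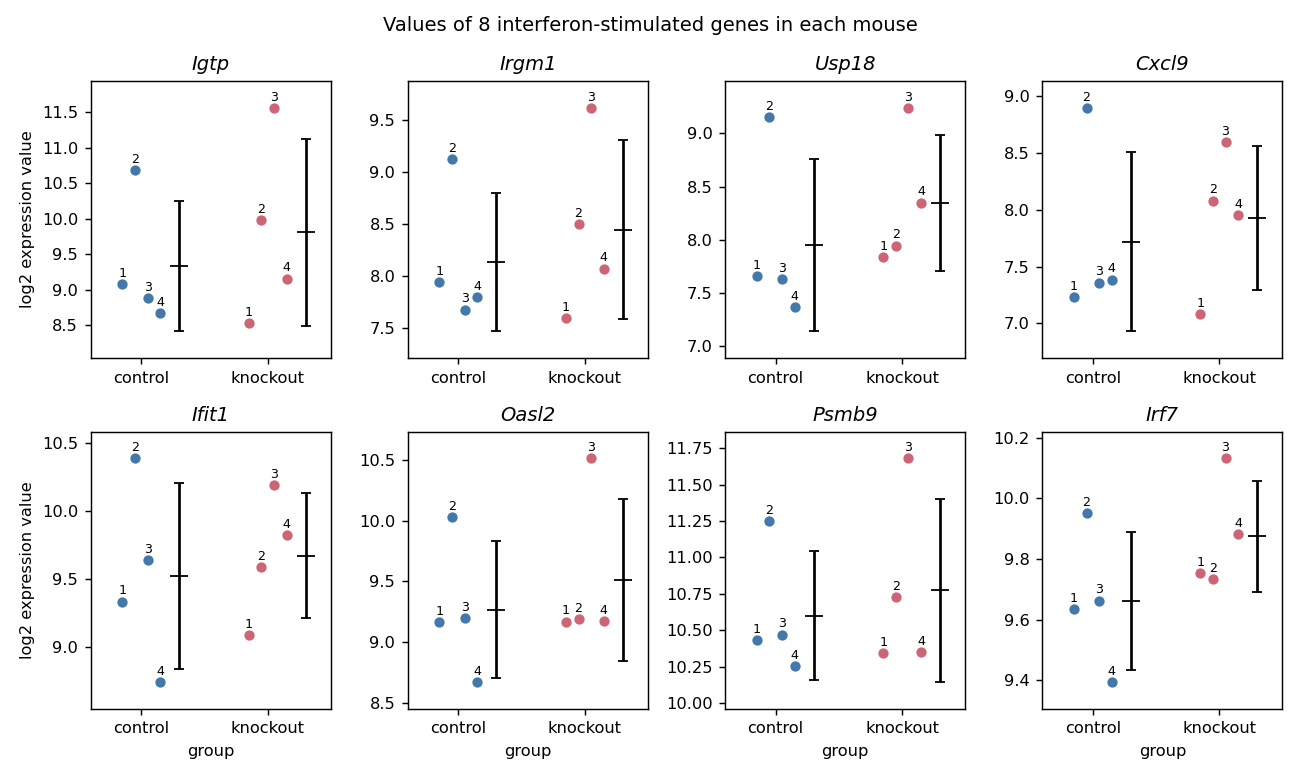
Log2 values (vertical axis) of 8 members in each mouse, with controls in blue and knockouts in red; digits give the replicate number, and black bars show the mean ± SD (n = 4 per group). Control 2 and knockout 3 are the highest of their groups in all 8 panels, as for Igtp at 10.69 and 11.57.

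The 3 members that serve class I antigen processing followed the same order. Tap1, a chain of the pump that carries peptides into the endoplasmic reticulum, read 8.30, 9.21, 8.31 and 8.29 in the controls and 8.23, 8.90, 9.82 and 8.22 in the knockouts. Apart from control 2, the controls lay within a few hundredths of each other. Psmb9, an immunoproteasome subunit, read 10.43, 11.25, 10.47 and 10.25 against 10.34, 10.73, 11.68 and 10.35. Psmb8, its partner subunit, was brighter, with 11.94 in control 2, 12.36 in knockout 3 and 11.15 to 11.52 elsewhere. The differences between groups were 0.27, 0.17 and 0.24 and did not pass (adjusted p = 0.903, 0.934 and 0.872 in limma). Of 3 further, dimmer Tap1 probe sets, the one near 5 had both maxima in control 2 and knockout 3 and those below 4 did not.

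Both chemokines that draw T cells through the receptor Cxcr3 were high in the same mice. Cxcl9 read 7.23, 8.90, 7.36 and 7.38 in the controls and 7.08, 8.08, 8.60 and 7.95 in the knockouts. Cxcl10 read 5.44, 6.91, 5.45 and 5.47 against 5.50, 6.07, 6.96 and 6.04. In both genes control 2 stood clear of the other controls, while the knockouts were more evenly spaced. The differences of 0.21 and 0.32 did not pass (adjusted p = 0.939 and 0.888 in limma).

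The antiviral effectors ranged from variable to steady. Their median SD was 0.39 and single values ran from 0.095 for Ifi35 to 0.85 for Xaf1. Usp18, the protease that removes Isg15 from proteins and damps the receptor, read 7.66, 9.15, 7.63 and 7.37 in the controls and 7.84, 7.95, 9.24 and 8.35 in the knockouts. Zbp1, a sensor of left-handed nucleic acid that can start cell death, read 8.42, 9.59, 8.23 and 8.15 against 8.35, 8.81, 10.16 and 8.63. Their differences of 0.39 each were about as large as their standard errors of 0.40 (adjusted p = 0.872 for both in limma).

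Ifit1, which binds viral RNA caps, read 9.33, 10.39, 9.64 and 8.74 in the controls and 9.09, 9.58, 10.19 and 9.82 in the knockouts. The controls thus spanned the whole range, 3.13-fold, and contained every knockout value. Ifit2, a relative, read 6.57 in control 2 and 6.37 in knockout 3 and 5.17 to 5.98 in the others. Ifit3, which stabilises Ifit1, varied less, between 7.19 and 7.72, and its highest knockout value was in knockout 4.

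The oligoadenylate synthetases are a family whose active members make the messenger that turns on RNase L. Oas1a ranged from 9.29 in control 4 to 10.35 in knockout 3, and Oasl1 from 9.64 to 10.75 in the same mice. Oasl2 read 9.17, 9.19 and 9.18 in knockouts 1, 2 and 4 but 10.51 in knockout 3, and 10.03 in control 2 against 8.67 to 9.20 in the other controls. Oas2 was dimmer, highest in control 2 at 6.99 and in knockout 3 at 6.91. The 4 group differences lay between -0.14 for Oas2 and 0.25 for Oasl1, and none passed (lowest adjusted p = 0.842 in limma, for Oasl1).

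Rsad2, viperin, which makes a chain-terminating nucleotide, and its neighbour Cmpk2, a nucleotide kinase, were lowest in control 4, at 7.94 and 7.58. By these brightest probe sets both were highest in control 2, at 9.04 and 8.75. The other Rsad2 probe sets were highest in knockout 3, at 7.58 and 7.53, with 7.37 and 7.51 in control 2. The 3 probe sets of Rsad2 had differences of 0.17, 0.23 and 0.27. Rtp4, an inducible chaperone that restrains flaviviruses, read 10.11 in control 2 and 10.03 in knockout 3 and 9.01 to 9.72 elsewhere. Parp14, an ADP-ribosyltransferase, ranged from 8.35 to 9.35.

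Ifi35, a regulator of sensor signalling, was the brightest effector and had both maxima in control 2 and knockout 3, but spanned no more than 11.62 to 11.86. The members without both maxima in those mice were all effectors: Bst2, Ifit3, Mx1, Mx2 and Xaf1. Bst2, tetherin, which holds budding virus at the cell surface, had its highest value of 7.86 in knockout 2 and its lowest of 7.12 in knockout 1. The Mx proteins trap viral nucleocapsids, and Mx1 is known to be disrupted in many laboratory strains. Mx1 lay between 3.53 and 4.13, below the array medians, and Mx2 between 5.84 and 6.30.

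Xaf1, a factor linked to cell death, had 2 probe sets that disagreed. The brighter on average read 8.35, 9.17, 9.03 and 7.28 in the controls and 6.86, 8.62, 8.04 and 8.65 in the knockouts, a difference of -0.42. The other read 7.85, 8.53, 5.41 and 8.98 against 8.38, 7.89, 9.75 and 8.51, a difference of 0.94. Control 3 was thus high on one and the lowest mouse on the other, and no direction can be given for this gene.

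Among the sensors and transcription factors, Irf7, which drives interferon alpha genes, came nearest to a group difference. It read 9.64, 9.95, 9.66 and 9.39 in the controls and 9.75, 9.73, 10.13 and 9.88 in the knockouts, and control 2 lay above 3 of the 4 knockouts. The difference of 0.21 ± 0.12 (SE) had an unadjusted p of 0.116 in limma. Irf1, a factor that interferon gamma induces and whose gamma-activated core is printed above, read 10.90 in control 2 and 11.26 in knockout 3 and 10.37 to 10.71 elsewhere. Stat2 read 7.50 and 7.73 in those mice and 6.62 to 7.13 in the others.

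Irf9, the DNA-binding partner of Stat2, was steady at 7.72 to 8.11. The RNA sensor Ifih1, known as MDA5, ranged from 8.83 in knockout 1 to 9.68 in knockout 3, and its regulator Dhx58, known as LGP2, from 5.79 in control 4 to 6.90 in control 2. Group differences for the 6 sensors and factors lay between -0.066 and 0.21.

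No member changed when the high mice were left out. Without control 2, 7 member probe sets (12.5%) had an unadjusted p under 0.05 in limma, against 6.75% of all probe sets, and 5 had separated groups, all higher in the knockout, from Irf7, Usp18, Cxcl10, Rsad2 and Psmb8. The 5 are 8.93% of the 56, near the 7.97% of all probe sets that separated in the same 7 mice, and the lowest adjusted p was 0.718 in limma. Without control 2 and knockout 3 together, 6 (10.7%) had an unadjusted p under 0.05, against 5.57% of all, and the same 5 probe sets separated, 8.93% against 11.0% of all probe sets. Their changes were then between 0.18 for Psmb8 and 0.49 for Usp18, with a lowest adjusted p of 0.878 in limma.

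The rest of the pathway was read with lists of ligands, receptors, signalling parts, nucleic acid sensors and further stimulated genes. None of their 178 probe sets changed (limma, adjusted p under 0.05; 0.0422% of all), nor in the ordinary linear model. At an unadjusted p under 0.05 there were 17 in limma, 13 higher and 4 lower, and 13 in the ordinary model. The 17 are 9.55% of 178, against 7.13% of all probe sets. In 6 probe sets, 3.37%, the groups did not overlap, against 4.43% of all.

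Interferon transcripts themselves were dim. Of 23 listed symbols 10 had a value, and 8 of those had means under 5. Ifng read 3.35, 3.72, 3.17 and 3.35 in the controls and 3.24, 3.26, 3.58 and 3.47 in the knockouts. It was highest in control 2 and knockout 3, but over a span too small and too dim to read as a level. Ifnb1 lay between 4.39 and 5.03 and followed no such order.

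Receptors were brighter and steady between mice, with a median SD of 0.093 over 6 genes. None of the 6 was highest in both control 2 and knockout 3. Il10rb, a chain shared by the type III receptor, read 10.15 to 10.24 in the controls and 10.28 to 10.43 in the knockouts without overlap, a difference of 0.16 that did not pass (adjusted p = 0.681 in limma). Ifnlr1, the other chain of that receptor, read 7.12 ± 0.066 and 7.28 ± 0.10 (SD, n = 4 each), with overlap. Of the 13 signalling genes, Ptpn6, a phosphatase that dampens Jak kinases and is abundant in blood cells, was also without overlap, at 8.61 to 8.71 in the controls and 8.75 to 8.94 in the knockouts (adjusted p = 0.630 in limma). Irf8, a factor of myeloid cells that interferon gamma induces, read 10.36 in control 2 and 10.94 in knockout 3, but also 10.37 in knockout 2.

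Among 52 further stimulated genes, 33 (63.5%) were highest in both control 2 and knockout 3 of their groups, against 86.1% of the members and 14.9% of all genes. Their median SD of 0.24 was lower than the members' 0.43, with no test of that difference. The genes named next are among the most variable of the list. Ido1, which breaks down tryptophan, read 8.64, 9.44, 8.08 and 8.35 in the controls and 8.96, 8.86, 11.00 and 8.48 in the knockouts. Nlrc5, the activator of class I genes, read 6.57 in control 2 and 7.08 in knockout 3 and 4.86 to 5.56 elsewhere. Herc6, the ligase that attaches Isg15 in mice, read 8.84 and 9.17 in those mice and 7.12 to 7.64 in the others. Cxcl11, another ligand of Cxcr3, read 8.62 and 8.54 against 6.60 to 7.40.

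Most transcripts of the MHC class II and lymphocyte lists were highest in control 2 and knockout 3 of their groups, as were 14.9% of all genes. All 7 measured MHC class II genes were highest in control 2 among controls, and 6 also in knockout 3 among knockouts. Cd74, the class II invariant chain, read 12.61, 13.48, 13.00 and 12.40 in the controls and 12.72, 13.06, 14.06 and 12.41 in the knockouts. In the T cell, NK cell and intraepithelial lymphocyte list 10 of 15 genes had both maxima in these mice. The mean deviation of that list was -0.19 to 0.24 in the controls and -0.36 to 0.61 in the knockouts, highest in control 2 and knockout 3. The cytotoxic granule protease Gzmb read 11.36 in control 2 and 11.50 in knockout 3 and 10.22 to 10.68 elsewhere, and the T cell receptor chain Cd3e read 8.67 and 8.96 against 8.02 to 8.49. Of the genes without both maxima, Ncr1, Cd2 and Xcl1 had means under 5. Klrd1 and Cd8b1 were brighter and highest in knockout 3 among knockouts. Among controls, Klrd1 was highest in control 4, at 7.75, and Cd8b1 in control 1, at 5.04. The part of lymphocyte number in the member values was not tested.

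Other cell marker lists held fewer such genes. In the macrophage and dendritic cell list 2 of 14 genes were highest in both mice, in the B and plasma cell list 0 of 8, in the endothelial list 0 of 8 and in smooth muscle 0 of 10. Plasmacytoid dendritic cell markers had 2 of 5, Paneth cell markers 1 of 5 and neutrophil markers 3 of 7, where 5 of the 7 had means under 5. Exocrine pancreas markers, whose mean deviation ran from -1.34 in control 3 to 1.05 in control 4, had 0 of 11, but all 11 were highest in knockout 3 among knockouts. Their mean deviation was 0.60 in knockout 3 and -0.40 to -0.31 in the other knockouts, and their part in the member values of that mouse was not tested. Enterocyte markers had 0 of 9 and mean deviations of -0.24 in control 2 and -0.15 in knockout 3, the lowest of each group. Of the 9, 5 were lowest in control 2 among controls and 6 in knockout 3 among knockouts. Anpep, at 13.93, and Vil1, at 12.87, were the highest of all 8 mice in knockout 3, but every knockout lay above every control for both. In 5 of the 9 the groups did not overlap, against 4.35% of all genes. Knockout means were higher for 8 and lower for 1, Alpi, and none passed (lowest adjusted p = 0.476 in limma). Apob, at 11.26 in knockout 3 against a median of 12.36 over the mice, and Lct lay furthest below there. These genes weighed most on the mean deviation of knockout 3. Among controls Apob was lowest in control 3, at 11.46. The digestive enzyme Lct, lactase, was lowest of each group in control 2 and knockout 3, at 12.28 in knockout 3. It read 12.71 to 13.09 in the other 6 mice. The part of epithelial share in the member values was not tested.

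**Figure D5:**
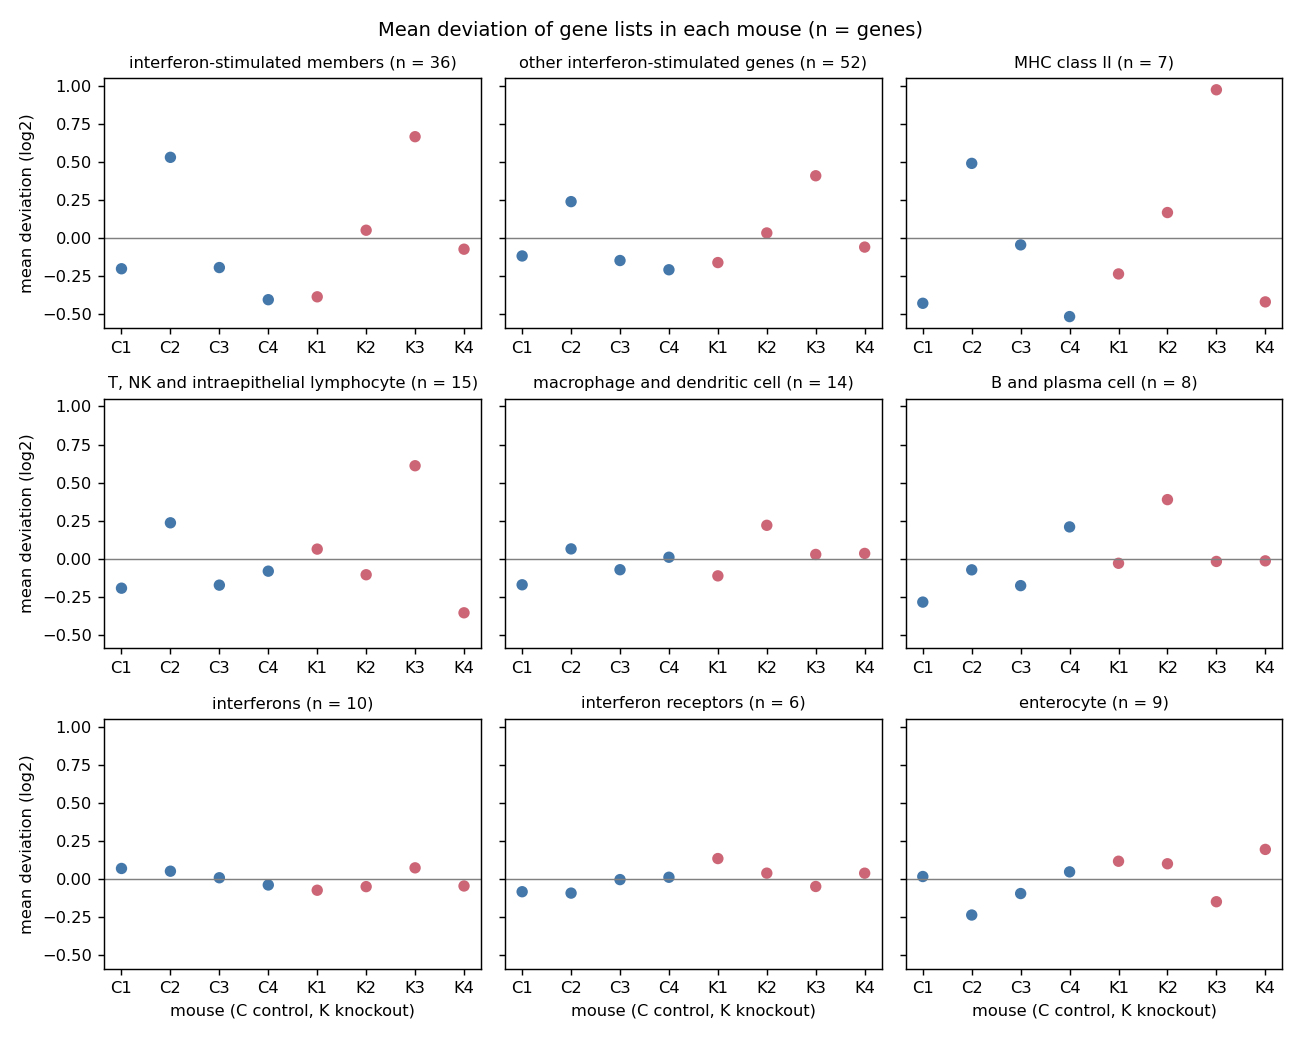
Mean deviation (log2, vertical axis) of the genes of 9 lists in each mouse, each gene taken from its mean over the 8 mice, with controls C1 to C4 in blue and knockouts K1 to K4 in red. The members, the other interferon-stimulated genes, MHC class II and the lymphocyte list are highest in C2 and K3, at 0.53 and 0.67 for the members, while interferon and receptor transcripts stay within 0.14 of 0.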

How the data were processed

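Each of 8 Affymetrix arrays has log2 values deposited by the authors, a scale read from the values. The submitters' processing notes list Partek 6.4 without its role. How background, summarisation and normalization were done is not stated by any source read. Such tables hide a shift of all transcripts, and dim probe sets carry unknown background. The number of arrays limits the precision.

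Members were probe sets with 1 gene symbol in GEO's platform annotation; all 56 matched the RefSeq gene table of GRCm38.p6 by Entrez identifier. The 64 control probe sets were left out. Knockout minus control was fitted with lmFit and eBayes of limma 3.58.1 (R 4.3.3) on all 45037 probe sets, two-sided, with Benjamini-Hochberg adjustment and a threshold of 0.05. Genes with several probe sets were read by the one brightest on average. The fit was tested on simulated data. Every member could be named; from other lists, the 4 genes of smallest p, genes with separated groups, and others chosen after seeing values (Ifnlr1, Ido1, Nlrc5, Herc6, Cxcl11, Irf8, Cd74, Gzmb, Cd3e, Lct, Ifng, Ifnb1, Slc10a2, Hoxb13). Members and lists were chosen with earlier results of these data known. Alternatives covered pairing, normalization, filters, priors, weights, thresholds and omitted mice; leaving out control 2 and knockout 3 together was added after seeing the data. The labels call the samples biological replicates. Figures used matplotlib 3.10.9.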

Additional observations from a re-analysis of the deposited data

Results flagged for a closer look

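Within each group of 4 mice, the highest and the lowest value of every member probe set were compared with the nearest other value. In 112 such groups 10 values stood apart, 8.93%. The cutoff is meant to pass about 1 in 20 groups of independent, normally distributed values. The same share over all probe sets was not counted, so 8.93% cannot be called particular to the members. Probe sets of coordinated genes are not independent, so the values below are in part the same observation. All were high values, 7 in control 2 and 3 in knockout 3.

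In control 2, Tap1 read 9.21 (next control 8.31), Usp18 9.15 (7.66), Ifit2 6.57 (5.60), Cxcl9 8.90 (7.38), Cxcl10 6.91 (5.47), the brighter Psmb8 probe set 11.94 (11.28) and the dimmer Rtp4 probe set 4.77 (4.39). In knockout 3, Oasl2 read 10.51 (next knockout 9.19), Oas2 6.91 (6.44) and the dimmer Psmb8 probe set 6.34 (5.77).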

How the results depend on the processing

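With 4 mice a group, wide spread between mice limits what could be detected, and dim probe sets have an unknown background. No member or pathway probe set changed under any alternative run. Over all probe sets, 19 changed, 29 at an adjusted p under 0.10, 4 with values under 5 set to 5 and 2 in an ordinary linear model. The replicate block gave 24. Same-numbered mice did not deviate together (r from -0.18 to 0.076 across probe sets). Such correlations cannot show whether the numbers pair mice by design. Member probe sets with separated groups numbered 0, with 0 to 5 when 1 mouse was left out and 5 without control 2 and knockout 3. Of 36 genes 30 were higher in the knockout, 12 to 33 with 1 mouse left out. The median of 0.14 ran from -0.076 without knockout 3 to 0.32 without control 2. Without control 2 and knockout 3 together, 28 were higher and the median was 0.11. The cause of these moves was not tested.

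Signs of single genes, none of them called, turned as follows. With 1 mouse left out, the log2 change ran from -0.11 to 0.14 for Bst2, -0.19 to 0.20 for Cmpk2, -0.11 to 0.44 for Ifit1, -0.18 to 0.26 for Ifit2, -0.016 to 0.14 for Mx2, -0.076 to 0.29 for Oas1a, -0.088 to 0.50 for Oasl2, -0.088 to 0.25 for Parp14, -0.0073 to 0.36 for Rsad2, -0.015 to 0.60 for Cxcl9, -0.0047 to 0.41 for Psmb8, -0.13 to 0.39 for Psmb9, -0.077 to 0.49 for Tap1, -0.29 to 0.33 for Gbp2, -0.078 to 0.059 for Gbp3, -0.19 to 0.46 for Gbp6, -0.033 to 0.52 for Ifi47, -0.11 to 0.93 for Igtp, -0.32 to 0.39 for Iigp1, -0.079 to 0.64 for Irgm1, -0.21 to 0.16 for Dhx58, -0.12 to 0.17 for Ifih1 and -0.11 to 0.31 for Stat2. With array weights they were -0.019 for Cmpk2, -0.0025 for Ifit1, -0.13 for Ifit2, -0.024 for Oas1a, -0.0093 for Parp14, -0.11 for Gbp2, -0.037 for Gbp6, -0.20 for Iigp1 and -0.11 for Ifih1. Repeated quantile normalization gave -0.0047 for Ifi35 and -0.022 for Ifih1, median centring 0.0079 for Bst2, and the mean of probe sets 0.26 for Xaf1. Without control 2 and knockout 3 the values were -0.085 for Gbp2, -0.059 for Iigp1, 0.0083 for Dhx58 and -2.2e-04 for Ifih1. Under array weights 21 of 36 were higher, with a median of 0.029. For the promoters, the response element core followed by CT lay in 8 of 26 members against 0.303% of all genes, and with only the bases before the start the shorter core lay in 11 of 26 against 3.46%.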

Other observations

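Knockout 1 was the lowest mouse for 6 of the 7 inducible GTPases, and for 9.55% of all genes. It also had the lowest value of Pla2g2a, a secreted phospholipase of Paneth cells that is known to be disrupted in some laboratory strains. Pla2g2a read 14.08, 14.06, 13.05 and 12.60 in the controls and 8.67, 13.95, 12.83 and 12.28 in the knockouts. The brighter-on-average probe set of Xaf1 was also lowest in knockout 1, at 6.86. The other read 8.38 in knockout 1 and was lowest in control 3, at 5.41. No strain is given in the sources used here, and a link between these values was not tested.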
